A study of Mus musculus with 12 samples.

Results

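Enzymes that convert quinones, aldehydes, epoxides and peroxides into less reactive products were followed in mouse macrophages through 10 genes: Nqo1, Cbr1, Cbr3, Akr1b8, Adh7, Esd, Ephx1, Ugdh, Cat and Osgin1. The genes were taken by symbol from a list of such enzymes, with no threshold on any measured value. However, this list and those of the related enzymes were chosen with earlier results of these data known. The counts of genes called below therefore describe these lists and are not independent evidence of enrichment. They are 10 of the 16145 genes listed in at least 1 library. All 10 are listed in all 12 libraries, and all 10 passed the filter on low counts that left 12148 genes to test.

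Quinones and aldehydes react with thiols and DNA, and cells meet them by reduction, oxidation, hydrolysis or coupling to a sugar acid. Several of these enzymes are textbook targets of NRF2, a transcription factor that is held down by KEAP1 until electrophiles or oxidants modify KEAP1, and that binds antioxidant response elements in DNA. Macrophages meet such compounds because they make hydrogen peroxide and take up heme from red cells.

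RNA was sequenced from bone marrow-derived macrophages, which are marrow cells cultured for 7 days with the growth factor M-CSF. Cells of WT mice received vehicle for 12 h, 4-OI at 120 µM for 15 h, or hemin at 15 µM for 12 h, and cells of Irg1KO mice received vehicle for 12 h. 4-OI is 4-octyl itaconate, an ester of the metabolite itaconate, hemin is oxidised heme, and Irg1 is the gene, now named Acod1, whose product forms itaconate. Each of the 4 groups had 3 libraries. The strain is not given in the sources used here. The labels do not say whether the 3 libraries of a group came from separate mice or cultures, so the tests measure the spread between these libraries, which may be technical. Because 4-OI was given for 15 h and all else for 12 h, the agent and the time cannot be told apart in any comparison with 4-OI.

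Library totals ran from 9405112 to 22390882 expected counts. Macrophage markers were abundant in every library, with a summed level of 22139 to 26914 CPM, which are counts scaled with TMM factors to a common library size. Lyz2 made most of that sum, with a mean of 16782 CPM in WT vehicle and 19481 CPM with 4-OI. Of the 8 markers, Itgam and Lyz2 were called higher with 4-OI, at log2 fold changes of 0.25 and 0.22. Cd14 and Fcgr1 were called lower, at -0.67 and -0.34. Counts of Acod1, the targeted gene, overlapped between the genotypes: they were 27.5, 30.5 and 25.0 CPM in WT vehicle and 21.7, 13.6 and 26.3 CPM in Irg1KO, a log2 difference of -0.48 (SE 0.26) with an adjusted p of 0.194. Its length-adjusted level did not overlap, at 11.26, 12.29 and 10.26 FPKM in WT vehicle and 7.25, 4.20 and 8.76 FPKM in Irg1KO. The deposited mean transcript length of Acod1 was 2635 to 2653 bases in WT vehicle and 3132 to 3382 bases in Irg1KO. FPKM divide counts by this length, so the gaps in FPKM and in length are not separate observations. Fibroblast and marrow stroma markers differed by genotype: their summed level was 11459 to 12851 CPM in Irg1KO and 1919 to 2351 CPM in WT vehicle, and 9 of the 9 tested were higher in Irg1KO. The other 2 of the 11 listed, Dcn and Lum, did not pass the filter. In Irg1KO Dcn, a defining marker of these cells, had 1 to 9 raw counts and Lum 0 to 1, against 2 to 6 and 0 to 2 in WT vehicle. The stroma sum was 2183 to 2425 CPM with 4-OI and 1761 to 2298 CPM with hemin. Neutrophil markers summed to 338 to 360 CPM with 4-OI, 94.99 to 104 CPM with hemin and 40.8 to 44.5 CPM in Irg1KO, against 82.6 to 93.7 CPM in WT vehicle. Endothelial markers summed to 7.67 to 8.80, 15.8 to 16.9 and 29.3 to 32.4 CPM in the same order, against 33.3 to 38.4 CPM. Mmp8 alone made 313 CPM of the neutrophil sum with 4-OI and S100a8 31.2 CPM, while S100a9 (adjusted p = 0.241) and Ngp (adjusted p = 0.384) were not called and Mpo, Elane and Camp did not pass the filter. Kdr made 28.6 CPM of the endothelial sum in WT vehicle and 4.98 CPM with 4-OI, and Pecam1 was not called with 4-OI (adjusted p = 0.766). Both B cell markers found were at or near 0. The part of other cells in the results was not tested, and in these bulk libraries fewer cells of a type and less RNA per cell cannot be told apart.

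With 4-OI, 9 of the 10 genes were higher than in WT vehicle and Cbr1 was not called, where a call is a Benjamini-Hochberg adjusted p under 0.05 in edgeR over all genes tested. Of all genes tested, 25.4% were called higher and 25.0% lower in that comparison, 50.4% in either direction. These are 3083 higher and 3043 lower on counts, and 1743 higher and 4608 lower on the log2(FPKM + 1) scale, where the 10 genes gave the same 9 calls. The median log2 fold change of the 10 was 1.98, against -0.00 over all genes. With hemin, 7 genes were higher, while Cbr1, Adh7 and Ugdh were not called, and of all genes 9.48% were called higher and 7.74% lower, 17.2% in all. The median of the 10 was 0.70 with hemin. In cells labelled Irg1KO, 7 genes were higher and Cbr1, Cbr3 and Osgin1 were not called, beside 23.5% of all genes called higher and 16.3% lower, 39.8% in all. The median there was 0.24. None of the 10 was called lower in any comparison, and none was lower at an unadjusted p under 0.05 by edgeR, DESeq2 or limma on log2(FPKM + 1). The 3 comparisons share the WT vehicle libraries. Set directly against hemin, 4-OI gave higher levels of 9 genes, again all but Cbr1, with a median log2 difference of 0.91. In that comparison 20.6% of all genes were called higher and 21.7% lower, 42.3% in all.

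**Figure D1:**
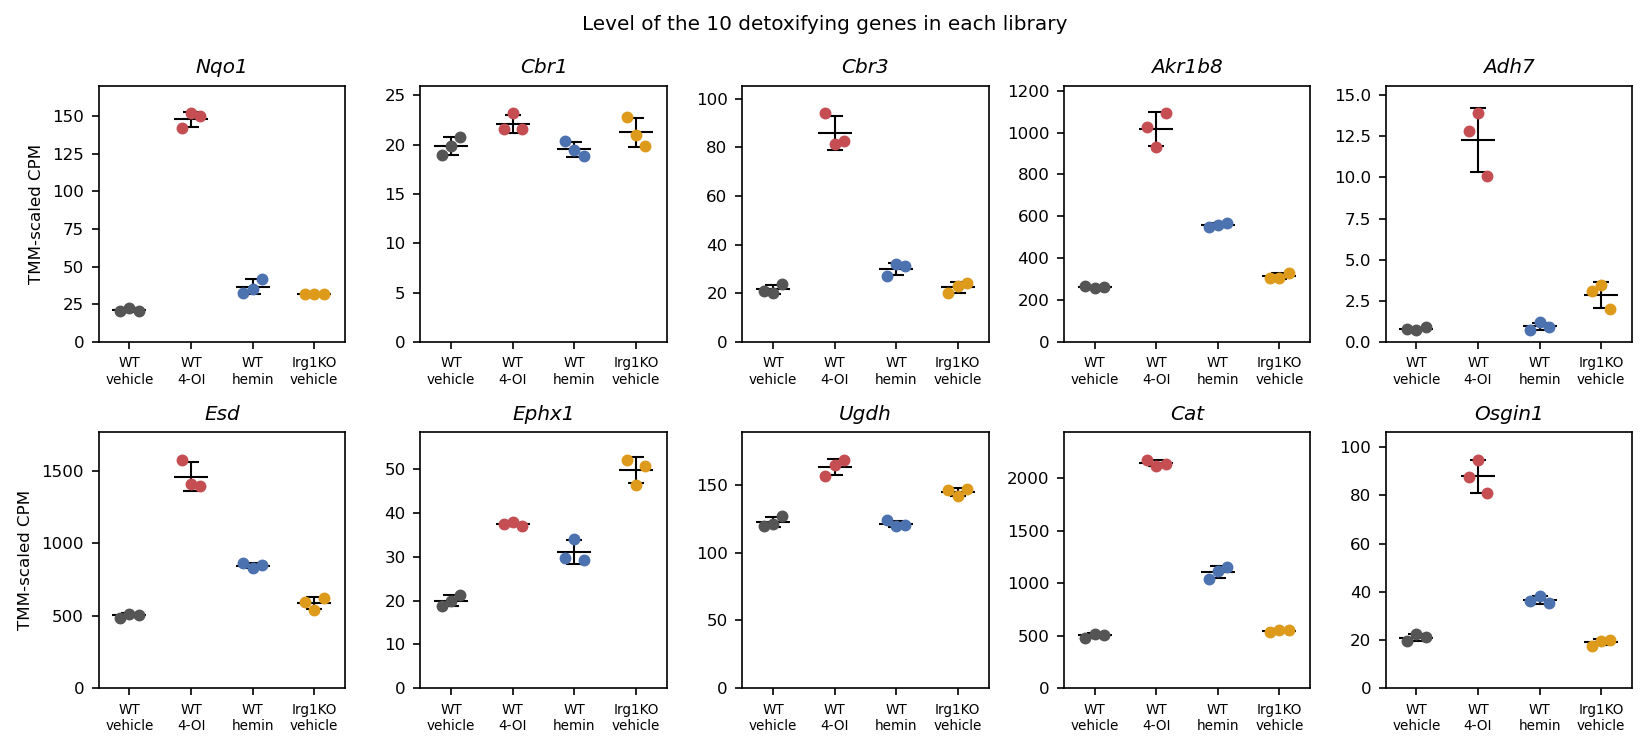
Level of each gene in TMM-scaled CPM (vertical axis from 0, own scale per gene) in the 3 libraries of each group, with mean and SD bars. The 4-OI libraries are the highest for 9 genes in group mean, and the Irg1KO libraries are the highest for Ephx1, at 46.3 to 52.1 CPM.

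Nqo1 reduces quinones straight to hydroquinones and so bypasses the reactive semiquinone. Its level was 20.1, 22.7 and 20.2 CPM in the WT vehicle libraries 1 to 3 and 142, 152 and 149.7 CPM with 4-OI. It was 32.5, 35.3 and 41.9 CPM with hemin and 31.6, 31.8 and 31.9 CPM in Irg1KO. In the order 4-OI, hemin, Irg1KO and WT vehicle, no group overlapped the next, although the lowest hemin library lay close to the Irg1KO libraries, and that pair was not tested. Against WT vehicle, Nqo1 rose 6.98-fold with 4-OI, or 2.80 on the log2 scale (SE 0.07, adjusted p = 4.30e-28). The log2 fold change was 0.80 with hemin (adjusted p = 8.36e-10) and 0.59 in Irg1KO (adjusted p = 9.52e-08). On the length-adjusted FPKM scale, Nqo1 was the seventh most abundant of the 10 in WT vehicle, at 14.6 ± 0.705 FPKM (SD, n = 3), and the fourth with 4-OI, at 96.0 ± 3.62 FPKM.

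Cbr1 and Cbr3 are sister carbonyl reductases that reduce quinones and other carbonyls with NADPH, and RefSeq lists them as neighbouring protein-coding genes on chromosome 16. Cbr3 was called in 2 of the 3 comparisons with WT vehicle and Cbr1 in none. Cbr3 was 20.7, 20.1 and 23.8 CPM in WT vehicle and 94.0, 81.4 and 82.6 CPM with 4-OI. All 3 Cbr3 libraries with 4-OI were above every other library. With hemin Cbr3 reached 27.0, 31.9 and 31.0 CPM, also above WT vehicle, and in Irg1KO it was 20.0, 22.9 and 24.2 CPM, spanning the WT vehicle range. Its log2 fold change was 2.01 with 4-OI (SE 0.08, adjusted p = 6.56e-22) and 0.50 with hemin (adjusted p = 4.23e-05). In Irg1KO it was 0.07, with a 95% interval of -0.11 to 0.25 and an adjusted p of 0.558.

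Cbr1 stayed between 18.8 and 23.2 CPM in all 12 libraries. It was 19.0, 19.8 and 20.7 CPM in WT vehicle, 21.6, 23.2 and 21.6 CPM with 4-OI, 20.4, 19.4 and 18.8 CPM with hemin and 22.8, 21.0 and 19.9 CPM in Irg1KO. Each group overlapped the next in the order of means, which was 4-OI, Irg1KO, WT vehicle and hemin. The 4-OI libraries still all lay above those of WT vehicle and hemin, by a small margin. With 4-OI its log2 fold change was 0.16 (adjusted p = 0.105), and the 95% interval of -0.01 to 0.33 includes 0 as well as a small rise. With hemin it was -0.02 (-0.20 to 0.15) and in Irg1KO 0.10 (-0.06 to 0.27). In WT vehicle the neighbours stood at the same length-adjusted level, with 21.6 ± 1.10 FPKM for Cbr1 and 21.3 ± 2.08 FPKM for Cbr3 (SD, n = 3). With 4-OI they stood at 21.8 ± 0.988 and 76.8 ± 5.99 FPKM. Every deposited count of both genes was a whole number, so none was divided with another gene by the counting model.

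The stretches of 120 bases just before the RefSeq start sites of these neighbours are printed because the genes lie side by side and only Cbr3 was called (build GRCm38.p6, forward strand, Cbr1 at chr16:93607717-93607836 and Cbr3 at chr16:93683099-93683218). The files use a later build, so these positions are not from the files.
Cbr1: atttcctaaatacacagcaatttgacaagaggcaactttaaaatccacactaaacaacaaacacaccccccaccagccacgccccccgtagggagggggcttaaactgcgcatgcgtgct
Cbr3: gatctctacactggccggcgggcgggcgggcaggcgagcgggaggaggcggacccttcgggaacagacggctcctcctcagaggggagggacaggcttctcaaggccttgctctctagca
Over the window of 300 bases around the start (250 before and 50 after), G and C made up 44.0% at Cbr1 and 60.0% at Cbr3. Neither window held the antioxidant response element core TGACNNNGC or the AP-1 motif TGANTCA on either strand.

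Akr1b8 is an aldo-keto reductase that reduces aldehydes, and it was among the most abundant of the 10. It was 267, 259 and 261 CPM in WT vehicle, 1027, 932 and 1092 CPM with 4-OI, 549, 557 and 567 CPM with hemin and 307, 303 and 329.5 CPM in Irg1KO. The 4 groups formed separate steps with no overlap. Akr1b8 rose by 1.95 on the log2 scale with 4-OI (SE 0.05, adjusted p = 2.39e-27), by 1.09 with hemin (adjusted p = 1.44e-18) and by 0.26 in Irg1KO (adjusted p = 1.02e-04). RefSeq places Akr1b8 between its relatives Akr1b3 and Akr1b10, which are named here as its neighbours and not by the rule. With 4-OI, Akr1b3 had a log2 fold change of 0.35 (adjusted p = 8.65e-08) and Akr1b10 of 0.14 (adjusted p = 0.0684). The counts of Akr1b8 were whole numbers in all 12 libraries.

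Adh7, an alcohol dehydrogenase that also oxidises retinol, was the rarest and had the largest fold change. Its raw counts were 13, 17 and 10 in WT vehicle, 167, 207 and 94 with 4-OI, 7, 16 and 12 with hemin and 43, 61 and 25 in Irg1KO. In CPM these were 0.775, 0.735 and 0.874 in WT vehicle, 12.8, 13.9 and 10.1 with 4-OI, 0.742, 1.18 and 0.878 with hemin and 3.11, 3.46 and 1.97 in Irg1KO. All 4-OI libraries were above all Irg1KO libraries, these were above the rest, and hemin overlapped WT vehicle.

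On the log2 scale the fold change of Adh7 was 3.98 with 4-OI (SE 0.21, adjusted p = 2.51e-18), or 15.7-fold, and 1.89 in Irg1KO (SE 0.27, adjusted p = 2.58e-07). With hemin it was 0.29, and the 95% interval of -0.43 to 1.00 is wide at these counts (adjusted p = 0.657). On the log2(FPKM + 1) scale, which understates changes of rare genes, the 4-OI value was 2.26 and the Irg1KO value 0.79, both still called. The rise in Irg1KO came beside stroma marker sums of 11459 to 12851 CPM, and their part in it was not tested.

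The stretch of 45 bases before the start of Adh7 is shown because it holds the only AP-1 match in that window, in capitals (GRCm38.p6, chr3:138217728-138217772, forward strand).
Adh7: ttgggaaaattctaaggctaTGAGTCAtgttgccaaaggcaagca
The match begins 25 bases before the start. TGANTCA occurs in 7.81% of the 32851 RefSeq windows of this length.

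Esd hydrolyses S-formylglutathione, the last step by which cells turn formaldehyde into formate. Its level was 486, 512 and 508 CPM in WT vehicle, 1575, 1409 and 1397 CPM with 4-OI, 862, 829.7 and 848 CPM with hemin and 597, 543 and 625 CPM in Irg1KO. As for Akr1b8, the groups were ordered 4-OI, hemin, Irg1KO and WT vehicle with no overlap. Esd rose by 1.54 on the log2 scale with 4-OI (SE 0.05, adjusted p = 5.45e-24), by 0.75 with hemin (adjusted p = 9.04e-14) and by 0.23 in Irg1KO (adjusted p = 5.21e-04). The enzyme before it in the pathway, Adh5, makes the substrate of Esd and is named for that reason. With 4-OI it had a log2 fold change of 0.08 (adjusted p = 0.235). The deposited mean transcript length of Esd varied by 6.45% across libraries, the most among the 10, which moves its FPKM but not its counts.

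Ephx1, the microsomal epoxide hydrolase, opens reactive epoxides to diols. Its highest group mean in CPM was that of Irg1KO, while for the other 9 it was that of 4-OI. In FPKM the mean of Cbr1 was also highest in Irg1KO, at 22.8 ± 1.54 against 21.8 ± 0.988 FPKM with 4-OI, a difference within the spread. Ephx1 was 18.7, 20.0 and 21.2 CPM in WT vehicle, 29.8, 34.1 and 29.2 CPM with hemin, 37.4, 37.8 and 37.0 CPM with 4-OI and 52.1, 46.3 and 50.6 CPM in Irg1KO. The groups did not overlap. Ephx1 rose by 1.32 on the log2 scale in Irg1KO (adjusted p = 1.82e-17), by 0.91 with 4-OI (SE 0.08, adjusted p = 1.40e-12) and by 0.65 with hemin (adjusted p = 9.46e-08). The stroma marker sum was 11459 to 12851 CPM in Irg1KO, and its part in the Ephx1 level there was not tested. With 4-OI and hemin that sum lay at 1761 to 2425 CPM, beside 1919 to 2351 CPM in WT vehicle.

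Ugdh oxidises UDP-glucose to UDP-glucuronic acid, the sugar acid that UDP-glucuronosyltransferases attach to phenols and hydroquinones. It was 119, 121 and 127 CPM in WT vehicle, 157, 164 and 168 CPM with 4-OI, 124, 119.7 and 120.1 CPM with hemin and 146, 142 and 146 CPM in Irg1KO. Hemin and WT vehicle overlapped, and the other groups stood apart. Ugdh rose by 0.42 on the log2 scale with 4-OI (SE 0.05, adjusted p = 1.79e-09) and by 0.25 in Irg1KO (adjusted p = 5.08e-05). With hemin it was -0.01, with an interval of -0.11 to 0.09. On the log2(FPKM + 1) scale the 4-OI value of Ugdh was 0.27 (adjusted p = 9.75e-05).

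The Ugdh window is shown because it was the only one of the 10 with the core TGACNNNGC, which it held in 2 places, in capitals, the first as written and the second on the other strand (GRCm38.p6, chr5:65435908-65435994, reverse strand).
Ugdh: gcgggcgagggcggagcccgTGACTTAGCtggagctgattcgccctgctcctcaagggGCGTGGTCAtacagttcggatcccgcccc
The matches begin 132 and 94 bases before the start. The core occurs in 12.39% of all 32851 windows. A match is a run of letters and not a measured binding site, and the window covers only the bases nearest the start.

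Cat is catalase, the peroxisomal enzyme that splits hydrogen peroxide to water and oxygen. It was 479.6, 522 and 509.6 CPM in WT vehicle, 2176, 2115 and 2142 CPM with 4-OI, 1042, 1120.5 and 1157 CPM with hemin and 536, 559.9 and 553 CPM in Irg1KO. The groups were in separate steps, but the step from WT vehicle to Irg1KO was small. The log2 fold change was 2.09 with 4-OI (SE 0.05, adjusted p = 7.46e-29) and 1.14 with hemin (adjusted p = 5.74e-20).

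In Irg1KO the log2 fold change of Cat was 0.13 (adjusted p = 0.0359), and 9 of 15 other settings did not call it. Its adjusted p was 0.202 without WT vehicle library 1 and 0.0650 without WT vehicle library 3. It was 0.134 without Irg1KO library 2 and 0.0917 without Irg1KO library 3. The count of genes called higher in Irg1KO is therefore 6 or 7 of the 10.

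Osgin1 is a stress-induced growth inhibitor and not itself a classical detoxifying enzyme. It was 19.5, 22.4 and 21.2 CPM in WT vehicle, 87.7, 94.7 and 81.0 CPM with 4-OI, 36.1, 38.4 and 35.5 CPM with hemin and 17.7, 19.7 and 20.2 CPM in Irg1KO. The last overlapped WT vehicle. Its log2 fold change was 2.06 with 4-OI (SE 0.07, adjusted p = 8.71e-24), 0.80 with hemin (adjusted p = 6.86e-10) and -0.14 in Irg1KO, with an interval of -0.30 to 0.03 (adjusted p = 0.202). Its relative Osgin2 was lower with 4-OI, by -0.30 (adjusted p = 0.00271).

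The stretch of 47 bases around the AP-1 match in the Osgin1 window is shown for comparison with that of Adh7 (GRCm38.p6, chr8:119437030-119437076, forward strand, match in capitals).
Osgin1: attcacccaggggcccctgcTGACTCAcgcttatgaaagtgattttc
It begins 97 bases before the start. The windows of the other 7 genes, Nqo1 and Cat among them, held neither motif, which says only that these letters are not in these 300 bases.

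**Figure D2:**
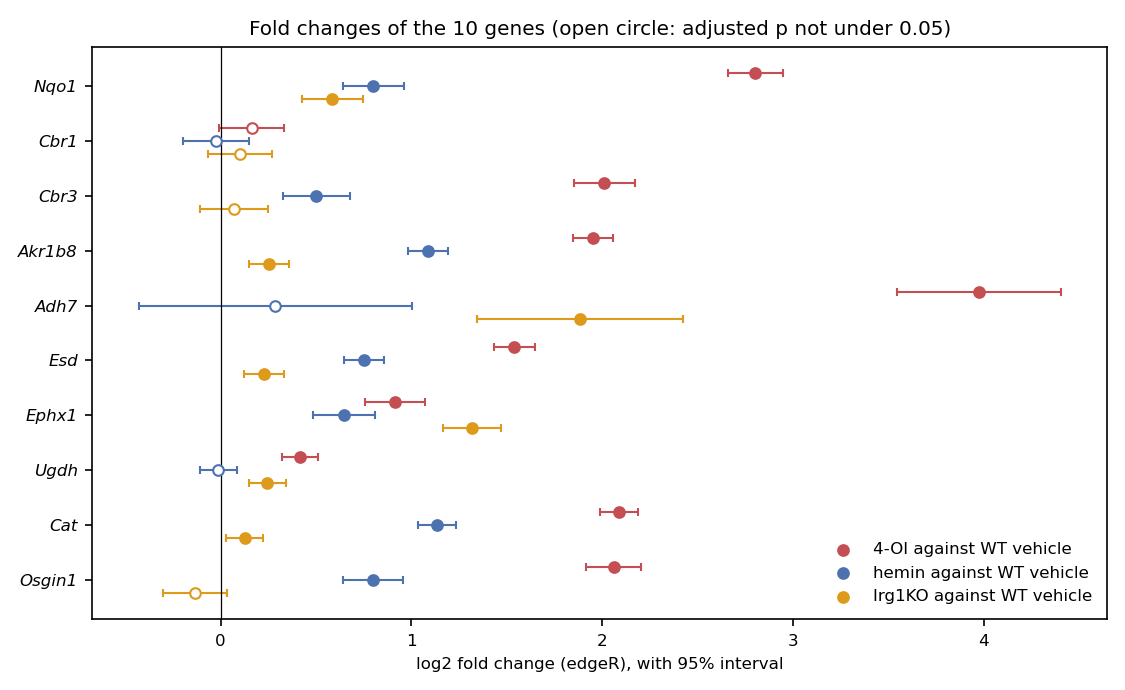
Log2 fold change of each gene against WT vehicle (horizontal axis) with 95% intervals, for 4-OI (red), hemin (blue) and Irg1KO (amber). Filled circles have an adjusted p under 0.05. The 4-OI points lie farthest right for all genes but Ephx1, and the Cbr1 points are open in all 3 comparisons.

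Between 4-OI and hemin the log2 difference was 3.69 for Adh7, 2.00 for Nqo1, 1.51 for Cbr3 and 1.26 for Osgin1. It was smaller for Cat at 0.95, Akr1b8 at 0.87 and Esd at 0.79. Ugdh differed by 0.43 and Ephx1 by 0.27 (adjusted p = 0.00454). For Cbr1 the difference was 0.19 (adjusted p = 0.0847).

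Esd, Akr1b8 and Cat carried most of the transcripts of the 10 genes when levels were put per length. In WT vehicle the means were 313 ± 12.3 FPKM for Esd, 226 ± 3.77 for Akr1b8 and 213 ± 8.35 for Cat (SD, n = 3). Ugdh followed at 53.8 FPKM, then Cbr1 and Cbr3, then Nqo1, with Ephx1 at 12.6, Osgin1 at 11.7 and Adh7 at 0.417 FPKM. With 4-OI the leading genes came to 823 ± 9.97 FPKM for Cat, 815 ± 55.7 for Esd and 793 ± 60.4 for Akr1b8, an order in which the spreads overlap. The 10 genes summed to 887 ± 22.9 FPKM in WT vehicle, 1022 ± 28.03 in Irg1KO, 1566 ± 31.6 with hemin and 2762 ± 82.1 with 4-OI. Esd, Akr1b8 and Cat together made 84.3 to 84.9% of that sum in WT vehicle, 82.9 to 83.5% in Irg1KO, 87.4 to 88.4% with 4-OI and 89.4 to 89.7% with hemin. Adh7, with the largest fold change, reached only 5.81 ± 0.973 FPKM with 4-OI.

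**Figure D3:**
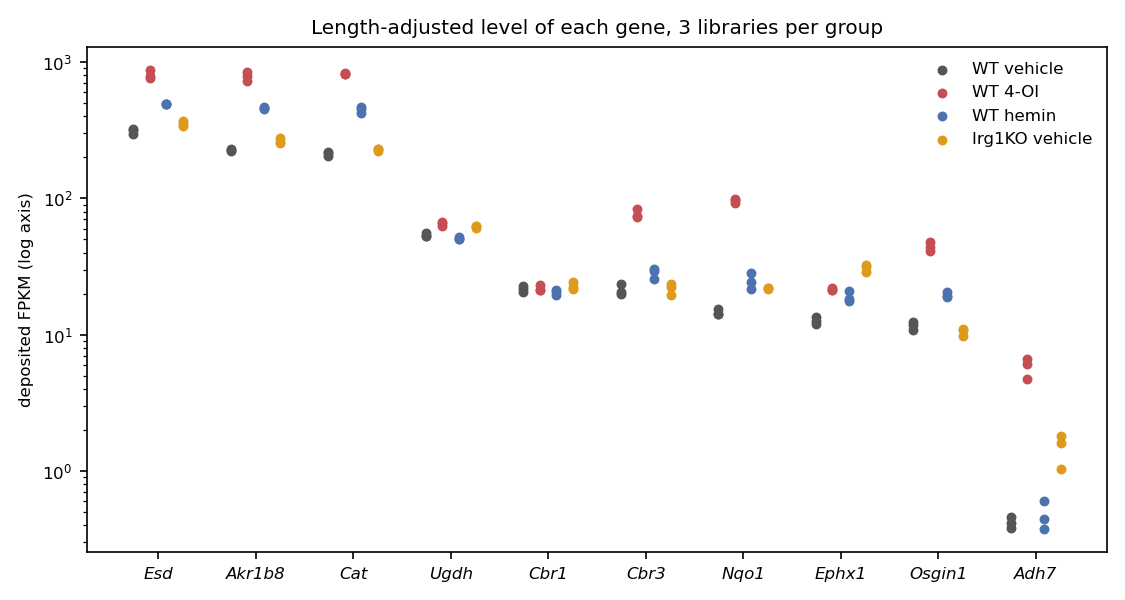
Deposited FPKM of each gene in the 12 libraries (logarithmic vertical axis), ordered by the WT vehicle mean. Esd, Akr1b8 and Cat lie above the other genes in every group, and Adh7 lies lowest, rising from 0.417 FPKM in WT vehicle to 5.81 FPKM with 4-OI in group mean.

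Across the 12 libraries, the levels of Akr1b8 and Cat followed each other most closely among the 10, with a Pearson r of 0.994 on log2 CPM. Akr1b8 and Esd gave 0.991, and Esd and Cat 0.987. These points share the same 4 groups and libraries, so the values describe a common order of groups. Among 9581 other genes of at least 5 CPM on average, those most like Cat were H6pd (0.996), Cyb5a (0.995) and Txnrd1 (0.994). H6pd makes NADPH in the endoplasmic reticulum, Cyb5a is an electron carrier of microsomes and Txnrd1 is cytosolic thioredoxin reductase. Most like Nqo1 were Mindy1 (0.994), Prkar2b (0.993) and Acss2 (0.993). Most like Esd were Clec4d (0.994), Tuba4a (0.993) and Appbp2 (0.992). Ephx1 had looser matches, Fzd1 (0.964), S1pr3 (0.961) and Col5a3 (0.960). Col5a3, a fibrillar collagen chain, stood at 127 CPM in Irg1KO and 31.7 CPM in WT vehicle.

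The 10 genes were set beside related enzymes from lists of the same pathways, of which 76 were tested. With 4-OI, 28 of the 76 were higher and 17 lower, with a median log2 fold change of 0.05. On the log2(FPKM + 1) scale the split was 21 higher and 29 lower, so the balance of the related enzymes depends on the scale, while the count of 9 higher among the 10 did not change. With hemin, 11 of the 76 were higher and 4 lower (9 and 8 on the FPKM scale), and in Irg1KO 14 were higher and 10 lower (14 and 15 on the FPKM scale). Of all genes tested on counts, 25.4% were called higher and 25.0% lower with 4-OI. The shares were 9.48% and 7.74% with hemin and 23.5% and 16.3% in Irg1KO. These shares are also the background for the counts by list below. On the log2(FPKM + 1) scale, 1743 of the 12148 genes tested were called higher and 4608 lower with 4-OI. The numbers were 621 and 1422 with hemin and 2504 and 2160 in Irg1KO.

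Among 16 other carbonyl and quinone reductases, 6 were higher and 4 lower with 4-OI. Akr1a1, the general aldehyde reductase, rose by a log2 fold change of 1.05, from 1039 to 2152 CPM (adjusted p = 1.27e-18). Akr1c13, whose counts were not whole and so were in part divided with other genes, not identified here, gave 1.29. Dcxr, a dicarbonyl and xylulose reductase, and Cbr2, another carbonyl reductase, fell by 0.87 and 0.66 on the log2 scale. Ptgr1, which reduces reactive enals and prostaglandins, rose with 4-OI by 3.29, from 81.3 to 797 CPM (adjusted p = 4.01e-18), and with hemin by 1.30 (adjusted p = 1.67e-10). It was 1.99 higher with 4-OI than with hemin. The rule names Ptgr1 for hemin and for 4-OI against hemin, and its value for 4-OI against WT vehicle was added after it was seen. In Irg1KO Ptgr1 rose by 0.45, Akr1c18 by 2.12 at 1.07 CPM, and Akr1b3 fell by 0.28.

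Of 11 aldehyde dehydrogenases, 4 were higher and 2 lower with 4-OI. Aldh3b1, which oxidises lipid aldehydes, rose by 0.81 from 86.9 to 152 CPM, and Aldh1a3, a retinaldehyde dehydrogenase, by 1.05 to 5.03 CPM. Aldh16a1 and Aldh4a1 fell by 0.38 each. In Irg1KO the retinaldehyde dehydrogenases Aldh1a2 and Aldh1a3 rose by 2.48 and 0.99, from 0.861 to 4.90 CPM and from 2.51 to 4.70 CPM, while Aldh9a1 fell by 0.34. Of 5 tested genes of alcohol, formaldehyde and methylglyoxal clearance around Adh7 and Esd, none was higher with 4-OI. At an unadjusted p under 0.05, 1 was higher by edgeR, 1 by DESeq2 and 0 by limma on log2(FPKM + 1). Adhfe1, which is named after the iron-dependent alcohol dehydrogenases, was lower, at 0.371 against 1.38 CPM (adjusted p = 5.81e-05), both low levels.

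The epoxide hydrolase list, which holds microsomal electron partners as well, had 5 of 5 tested genes higher with 4-OI. Cyb5a rose by 2.37 with 4-OI, from 112 to 578 CPM (adjusted p = 4.23e-30), and by 1.46 with hemin. Por, the reductase that feeds cytochromes P450, rose by 0.59 and 0.39. In Irg1KO 2 of the 5 were higher. Cyp1b1, a cytochrome P450, rose by 1.77, from 138 to 469 CPM, and Ephx2, the soluble epoxide hydrolase, by 1.97, from 0.964 to 3.65 CPM. Around Ugdh, 4 of 8 genes were higher and 1 lower with 4-OI, among them Ugt1a7c at 0.63 and Ugt1a6a at 1.63. These transferases share exons and their counts were almost never whole, so the division of reads between them is uncertain. Gusb, which removes glucuronic acid, fell by 0.25 with 4-OI and by 0.28 in Irg1KO. Has2, which uses UDP-glucuronic acid to make hyaluronan, rose by 2.39 in Irg1KO, from 5.71 to 29.98 CPM.

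Of 23 peroxisome genes around catalase, 6 were higher and 6 lower with 4-OI, with a median log2 fold change of -0.01, beside 2.09 for Cat. Pex11a, which acts in peroxisome division, rose by 0.76. With hemin 2 of the 23 were higher and 1 lower. Of 7 glutathione peroxidases and superoxide dismutases, the other enzymes of peroxide and superoxide removal, 3 were higher and 2 lower with 4-OI. Sod1 rose by 0.46, while Gpx3 fell by 0.59 and Gpx1 by 0.27. In Irg1KO 4 of the 7 were higher, led by Gpx8 at 2.10 and Sod3 at 2.74, and Sod1 fell by 0.26. The Irg1KO values of Aldh1a2, Cyp1b1, Ephx2, Has2, Gpx8 and Sod3 also came beside the raised stroma marker sum, whose part was not tested.

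**Figure D4:**
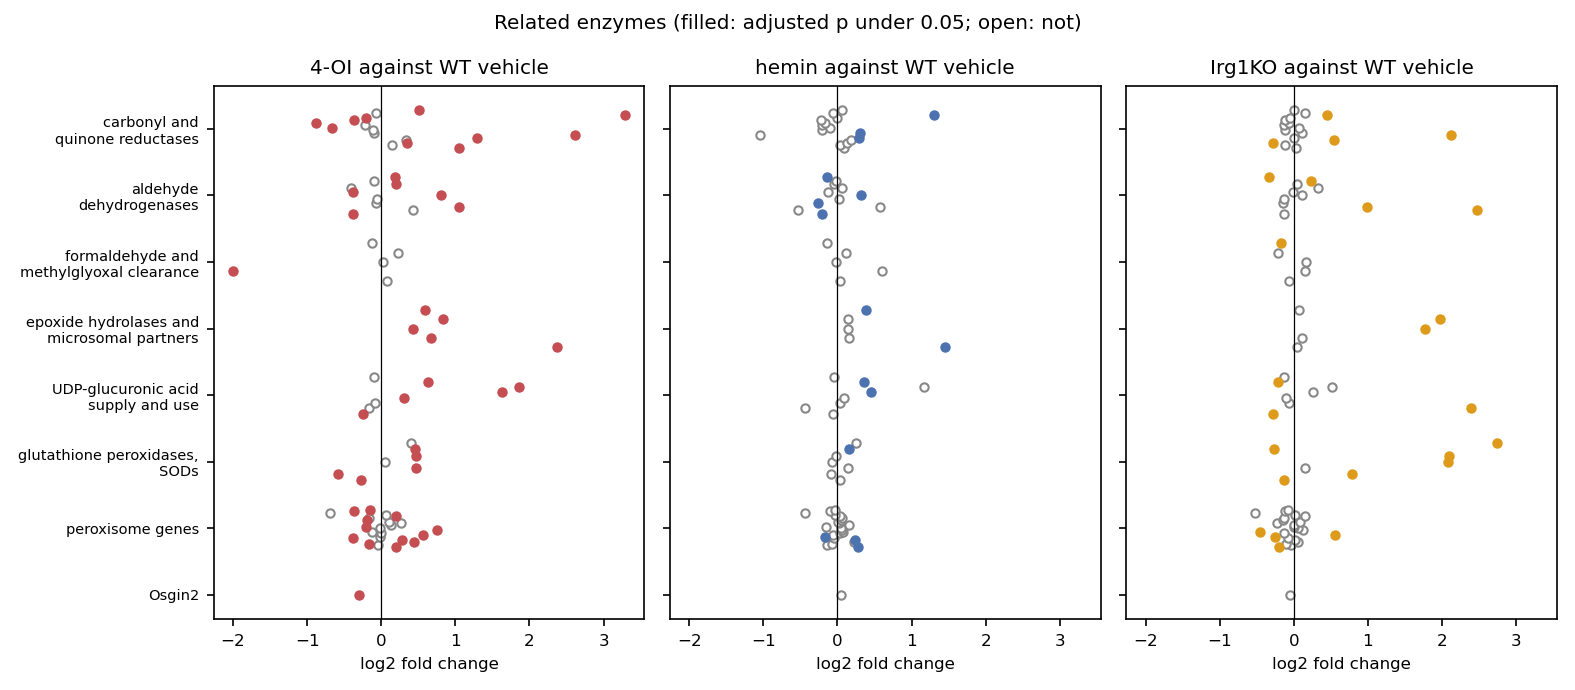
Log2 fold change of each of the 76 tested related enzymes (horizontal axis), by list, in each comparison with WT vehicle. Filled points have an adjusted p under 0.05. The points lie on both sides of 0 with 4-OI, with 28 higher and 17 lower, and most are open with hemin.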

How the data were processed

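Each of the 12 macrophage RNA-seq libraries has 1 deposited file. The tools named are HISAT2, StringTie, Bowtie2 and RSEM, and the builds GRCm39 and mm39, per the submitters' processing notes, and versions are not given in the sources used here. The deposited expected counts, per the file headers, are estimated reads per gene, and 90.62 to 92.03% were whole in each library. The deposited FPKM, per the file headers, divide these by transcript length and library total. Genes that a file does not list were set to 0.

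Expected counts were rounded, filtered with filterByExpr and TMM-scaled (factors 0.944 to 1.05). All 12 libraries entered 1 edgeR 4.0.16 quasi-likelihood fit with robust dispersion in R 4.3.3, and p-values were adjusted over 12148 genes. The biological coefficient of variation was 4.71%. On simulated counts for 4-OI against WT vehicle over 11755 genes, 77% of genes simulated with a log2 change of 0.5 were found, and 95% of those with 1. Each size was given to 100 genes, none as rare as Adh7 in WT vehicle, and 13 unchanged genes were called. Far more genes were called in the real comparison, so these shares may not hold there.

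The alternatives tried were DESeq2 1.42.0, RLE factors, upper-quartile factors, limma 3.58.1 with a trend on log2(FPKM + 1) and log2(FPKM + 0.1), leaving the filter out, a filter of 10 counts in 6 libraries, only the 2 groups compared, a replicate block, and leaving out each library. The named related enzymes are up to 2 higher and 2 lower per list and comparison by adjusted p, and like patterns are the top 3 by r. The members and lists were chosen with earlier results of these data known. Of 94 related symbols, 87 matched. 1 related enzyme that the naming rule selects is not reported here. Promoter windows and neighbours are from RefSeq, GRCm38.p6, matched by symbol for all 10 genes. Python 3.11.15, pandas 2.3.3 and matplotlib 3.10.9 were used.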

Additional observations from a re-analysis of the deposited data

How the results depend on the processing

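The 40 results of the 10 genes, each under 15 alternatives, gave 600 values, of which 591 kept their direction and side of the threshold or stayed uncalled. The other 9 were all the call of Cat in Irg1KO, whose log2 fold change ranged from 0.09 to 0.15 and adjusted p from 0.0281 to 0.202. Besides the 4 libraries named above, it was lost with RLE factors (adjusted p = 0.0883), DESeq2 (0.0682), log2 FPKM with 1 or 0.1 added (both 0.117) and no filter (0.110). Genes called among the 10 stayed at 9 with 4-OI, 7 with hemin and 9 for 4-OI against hemin, and were 6 or 7 in Irg1KO. Of 75 results of related enzymes, 14 lost their call in at least 1 alternative and none changed direction.

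With log2(FPKM + 1), calls over all genes were 1743 higher and 4608 lower with 4-OI (3083 and 3043 on counts). They were 621 and 1422 with hemin (1152 and 940) and 2504 and 2160 in Irg1KO (2850 and 1983). For 4-OI against hemin they were 1726 and 3490 (2500 and 2636). The median of all genes moved by -0.11 with 4-OI on that scale. Adh7 for 4-OI against hemin was 2.21 there.

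Replicate numbers showed no sign of pairing the libraries, although this check cannot tell whether same-numbered libraries were made together, and the labels do not say. Deviations of same-numbered libraries correlated at -0.08 to 0.07 over 18 pairs, and 4 of 12 libraries were most like their own number. With the replicate block, 9, 7, 7 and 9 of the 10 genes were called, and 6156, 2159, 4879 and 5181 genes in all, in the order 4-OI, hemin, Irg1KO and 4-OI against hemin. Depth limits Adh7, with 7 to 17 raw counts in WT vehicle and hemin libraries.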
